A study of Rattus norvegicus with 6 samples.

Results

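The microRNAs described here are those best known from cells of the immune system, read out in bulk liver of rats with nonalcoholic fatty liver disease (NAFLD) and of normal rats. The list had 7 members, miR-223-3p, miR-142-3p, miR-142-5p, miR-155-5p, miR-146a-5p, miR-146b-5p and miR-150-5p, of the 675 rat mature miRNA groups that the RefSeq table distinguishes by their first 18 bases. The members were listed by name, with earlier results of these data known. A distinct read sequence, here called a tag, was counted for a member when its first 18 bases were those of the mature miRNA. For miR-142-3p, a tag that started 1 base earlier or later was counted too. RefSeq sequences were matched for 6 members, and miR-150-5p was not analysed here.

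The study sequenced small RNA from the livers of 6 rats, 3 with NAFLD and 3 normal, and made 1 library from each. All rats were male Wistar rats, aged 4 months by the sample labels and 28 weeks by the study's methods. The NAFLD livers came from the high-glucose rats, which were fasted for 48 h and then ate a diet of 80% starch until the 7th day. Rats on a standard diet with 35% starch gave the normal livers. Hepatic triglyceride content guided which NAFLD livers were sequenced, in favour of high values, whereas the normal livers were a random draw. Reads are given as TPM, the reads of a miRNA per 1000000 clean reads of its library, so that a read counts once whatever its length.

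MicroRNAs are short RNAs that a protein of the Argonaute family carries to messenger RNAs, and bases 2 to 8, the seed, set most of the target choice. Most of the listed miRNAs are made mainly by blood cells and by macrophages, to which the Kupffer cells of the liver belong, whereas hepatocytes are dominated by miR-122. MiR-223 is abundant in neutrophils and monocytes, and the miR-142 hairpin, which gives a mature miRNA from each arm, is expressed throughout the blood lineages. MiR-155 is induced when macrophages and lymphocytes are activated. MiR-146a is induced by NF-κB signalling and restrains it through the adaptors IRAK1 and TRAF6, and miR-146b is its paralog. MiR-150 marks mature lymphocytes.

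The mature sequences that were counted follow, 5′ to 3′, with the seed in capitals, because the seed groups them and the first 18 bases decided which reads were counted.
rno-miR-223-3p: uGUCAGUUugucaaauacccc
rno-miR-142-3p: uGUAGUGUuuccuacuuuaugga
rno-miR-142-5p: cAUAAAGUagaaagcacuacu
rno-miR-155-5p: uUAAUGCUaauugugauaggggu
rno-miR-146a-5p: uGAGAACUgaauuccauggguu
rno-miR-146b-5p: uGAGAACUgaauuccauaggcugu
MiR-146a-5p and miR-146b-5p share the seed GAGAACU, and each of the other 4 has a seed of its own. Over the 22 bases that both sequences have, miR-146b-5p differs from miR-146a-5p by G18A and U21C, with positions counted from 1 at the 5′ end. The 18th base therefore separated them in the counts.

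In the GRCr8 assembly, the mature miR-223-3p lies on the plus strand at chrX:65151450-65151470, within the span of the lncRNA gene LOC120099372. Both miR-142 arms lie on the plus strand of chromosome 10, miR-142-5p at chr10:73055119-73055139 and miR-142-3p at chr10:73055155-73055177, within the span of the protein-coding gene Tspoap1. MiR-155-5p lies on the plus strand at chr11:37261117-37261139 within Mir155hg, its lncRNA host gene. MiR-146a-5p is on the minus strand at chr10:28350053-28350074 within the span of the lncRNA gene LOC134480673, and miR-146b-5p is on the plus strand at chr1:255144874-255144897 within the span of C1h10orf95. The table used gives gene spans without strand or exons, so exonic or intronic position was not read.

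The libraries held 11601058 to 11880695 clean reads, of which 75.7% to 79.2% matched a miRNA in NAFLD livers against 85.7% to 91.3% in normal livers. MiR-122-5p, the hepatocyte miRNA, ranked 1 with 456550 ± 10342 TPM in NAFLD livers against 581610 ± 18436 TPM in normal livers (SD, n = 3 each). Its log2 fold change of -0.35 (standard error 0.04) was the only one that passed among 168 miRNAs tested (edgeR quasi-likelihood test, Benjamini-Hochberg adjusted p = 0.0005724). That call for miR-122-5p was lost with miRNA reads as library size (-0.16, edgeR adjusted p = 0.1509), with TMM factors (-0.44, edgeR adjusted p = 0.9087) and by DESeq2 (-0.41, adjusted p = 0.9844). NAFLD replicates 2 and 3 and normal replicate 2 stood apart from the other libraries in the share of reads with a base substitution, and their values are given beside the results below.

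The immune-cell miRNAs were rare in all 6 libraries. None of the 5 that could be tested was called different between NAFLD and normal liver, with intervals too wide to show that they were equal. Their reads summed to 27.6 TPM in the lowest library, normal replicate 2, and to 54.8 TPM in the highest, normal replicate 1. The NAFLD libraries lay between, with 35.8, 32.4 and 51.3 TPM in replicates 1 to 3. By mean TPM over the 6 libraries the order was miR-146a-5p, miR-146b-5p, miR-142-5p, miR-223-3p, miR-142-3p and miR-155-5p. MiR-146a-5p alone gave 51.4% of the 2851 reads of all members, whereas miR-155-5p gave 0.842%.

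**Figure D1:**
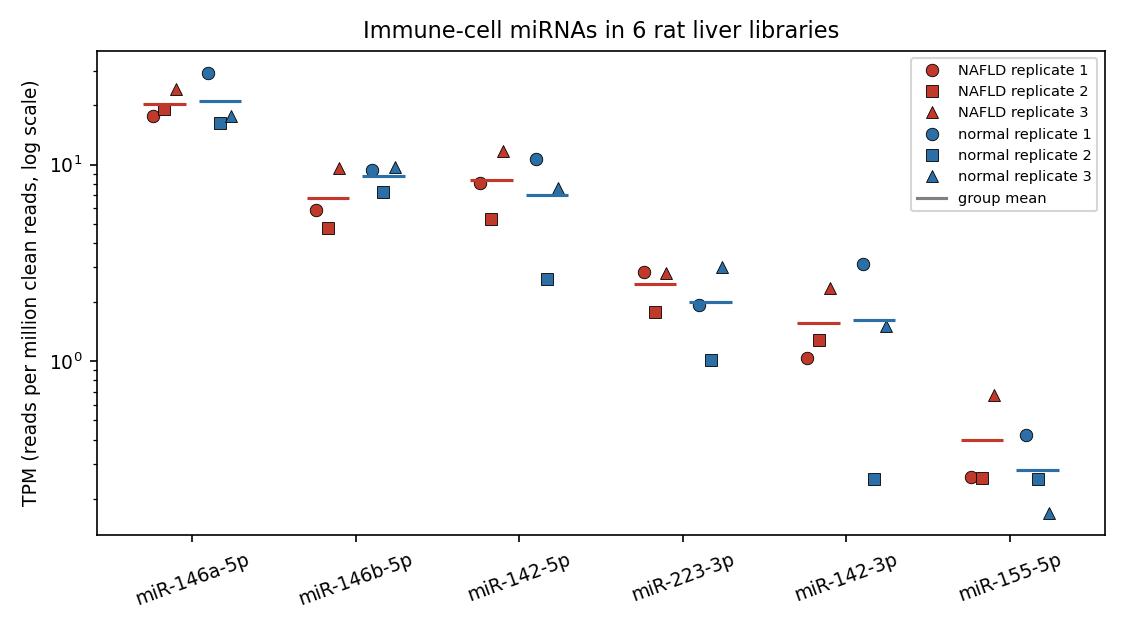
TPM on a log scale for each of the 6 members (x axis), with 1 point per library, NAFLD in red and normal in blue, the marker giving the replicate number and the line the group mean. The 2 groups overlap for every member, and normal replicate 2 is the lowest library for 4 of the 6.

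MiR-146a-5p, the inducible brake on NF-κB signalling, was read at 17.7, 19.05 and 24.1 TPM in NAFLD replicates 1 to 3 and at 29.3, 16.3 and 17.7 TPM in normal replicates 1 to 3. Normal replicate 1 was the highest library and normal replicate 2 the lowest, so the normal libraries enclosed the NAFLD ones. The means were 20.3 ± 3.40 and 21.1 ± 7.14 TPM (SD, n = 3 each). The log2 fold change was -0.05 with a 95% interval from -0.93 to 0.82 and an edgeR adjusted p of 0.9862. As a fold, that interval runs from 0.525 to 1.77, the range of fold changes that these libraries are compatible with at that level.

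MiR-146b-5p, its paralog with the same seed, had 5.86, 4.76 and 9.57 TPM in NAFLD livers against 9.36, 7.24 and 9.68 TPM in normal livers. NAFLD replicates 1 and 2 lay below all normal libraries and NAFLD replicate 3 among them. The log2 fold change was -0.38, with an interval from -1.24 to 0.48 (edgeR adjusted p = 0.9862). It was the member with the smallest unadjusted p from edgeR, 0.3572. The reads of miR-146a-5p exceeded those of miR-146b-5p in every library, by 1.83 times in normal replicate 3 and by 4-fold in NAFLD replicate 2.

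MiR-142-5p, from the hairpin used throughout the blood lineages, had 8.10, 5.27 and 11.8 TPM in NAFLD livers against 10.7, 2.61 and 7.58 TPM in normal livers. Normal replicate 2 was the lowest, and the other 5 libraries were mixed. MiR-142-3p, from the other arm, had 1.03, 1.28 and 2.37 TPM in NAFLD livers against 3.12, 0.253 and 1.52 TPM in normal livers, where the value of normal replicate 2 rested on 3 reads. Both arms were thus lowest in that library, and the highest value was in NAFLD replicate 3 for miR-142-5p and in normal replicate 1 for miR-142-3p. The log2 fold changes were 0.27 (interval from -0.84 to 1.38) and -0.06 (interval from -1.51 to 1.39), with an edgeR adjusted p of 0.9862 for both. Without normal replicate 2 these were -0.13 and -0.57, and without NAFLD replicate 3 they were -0.06 and -0.49. Without normal replicate 1 they were 0.72 and 0.81, and without NAFLD replicate 1 they were 0.29 and 0.16. Single libraries on either side thus turned the direction of each arm, though not the same libraries for both.

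MiR-223-3p, the miRNA of neutrophils and monocytes, had 2.84, 1.79 and 2.79 TPM in NAFLD livers against 1.94, 1.01 and 3.03 TPM in normal livers, from 12 to 36 reads each. The normal libraries held both the highest and the lowest value. The log2 fold change was 0.31 with an interval from -0.71 to 1.33 (edgeR adjusted p = 0.9862), and without normal replicate 2 it was -0.0064.

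MiR-155-5p, the activation marker, was at the limit of detection, with 3, 3 and 8 reads in NAFLD livers against 5, 3 and 2 in normal livers, or 24 reads in all. The highest count, 8 reads or 0.677 TPM, had a 95% Poisson interval from 0.292 to 1.33 TPM, and the lowest, 2 reads or 0.168 TPM, had one from 0.0204 to 0.608 TPM. These intervals overlap and cover counting error only. MiR-155-5p did not pass the filter on low counts, and a difference between the groups was not detectable at this depth. Fitted without a filter, it had a log2 fold change of 0.49 with an interval from -1.04 to 2.01 and an edgeR adjusted p of 0.9949.

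In all, 5 of the 6 counted members passed the filter and 0 of them had an adjusted p under 0.05 by edgeR, DESeq2 or limma. At an unadjusted p under 0.05 the count of members was also 0 in each of these 3 tools. Over all 168 miRNAs tested, 0.595% passed the adjusted threshold of edgeR and 1.79% the unadjusted one, so few miRNAs of any kind were called. DESeq2 called 1 miRNA too, miR-1b, which was lower, in place of miR-122-5p. The median log2 fold change was -0.05 over the 5 members and 0.02 over all miRNAs tested. None of the 6 members had groups that did not overlap in TPM, against 4.17% of the miRNAs tested. By the two-sided exact permutation test on TPM, p was 0.3 for miR-146b-5p and 0.5 to 1 for the others, where 3 libraries against 3 cannot give less than 0.1, and all 6 were 1 after adjustment.

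**Figure D2:**
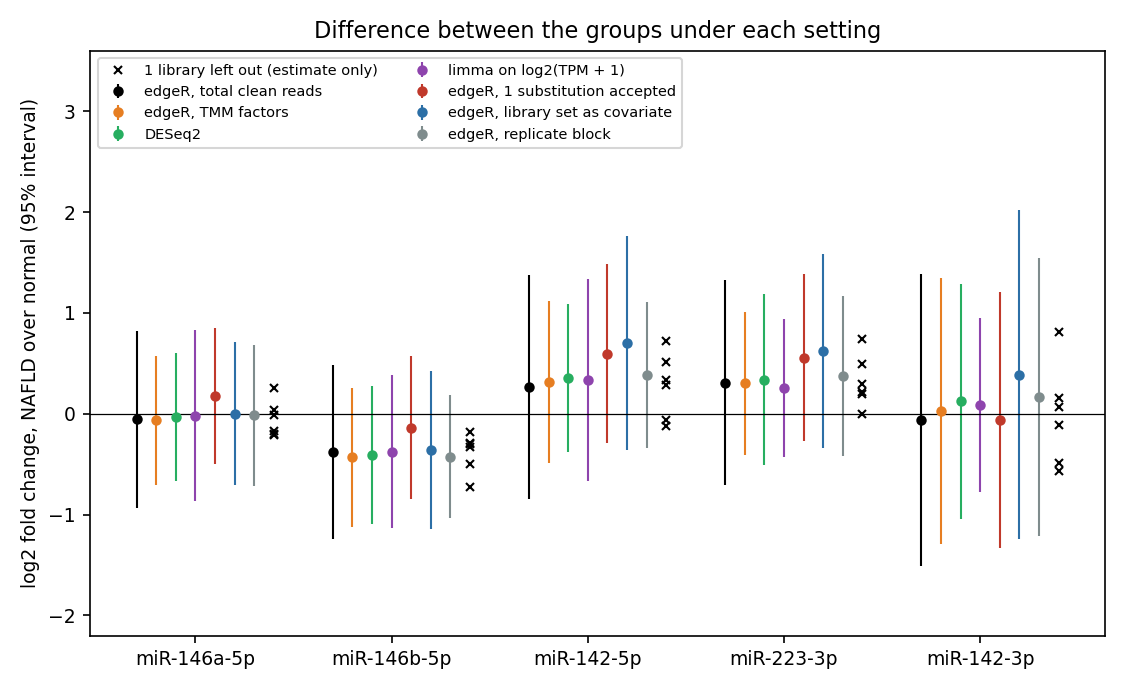
Log2 fold change of NAFLD over normal (y axis) for the 5 members that passed the filter, with 95% intervals under 7 fits, and crosses for the estimate with each library left out in turn. Every interval includes 0, and the crosses of miR-142-3p spread from -0.57 to 0.81.

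The order of the levels was clear only in part. MiR-146a-5p was above every other member in each library. MiR-146b-5p and miR-142-5p had means of 7.75 and 7.67 TPM and did not differ beyond their spread. MiR-223-3p and miR-142-3p, with means of 2.23 and 1.59 TPM, changed places in normal replicate 1, where miR-142-3p was the higher. MiR-155-5p, with a mean of 0.339 TPM, was the lowest member in 5 libraries and level with miR-142-3p, at 3 reads each, in normal replicate 2. Among the 365 miRNAs with at least 1 read, miR-146a-5p ranked 73, miR-146b-5p 96, miR-142-5p 97, miR-223-3p 130 and miR-155-5p 203.

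**Figure D3:**
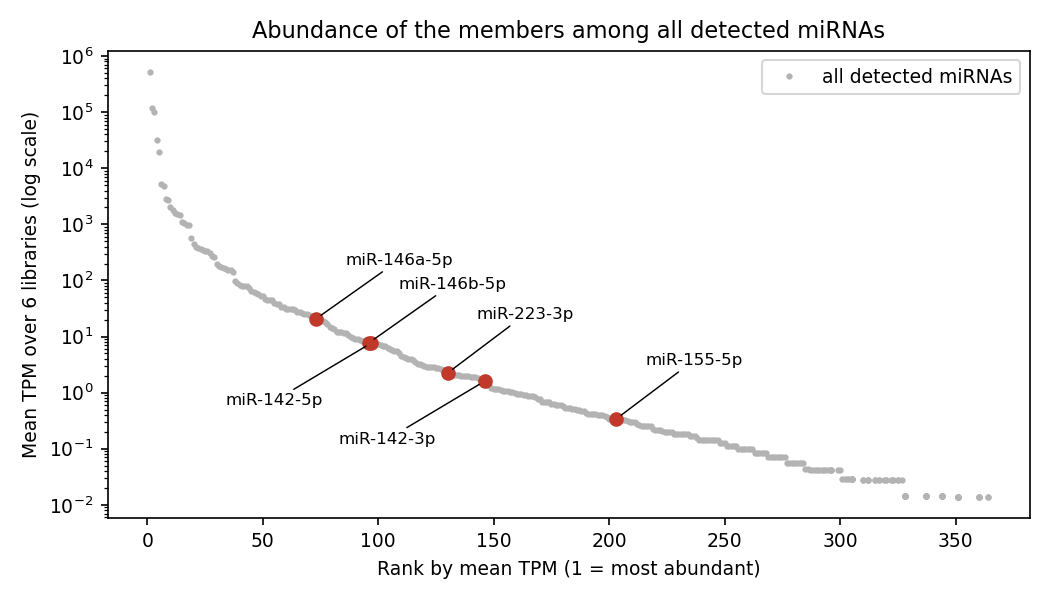
Mean TPM over the 6 libraries on a log scale against abundance rank for the 365 miRNAs with a read, in grey, with the 6 members in red. The members lie between rank 73 and rank 203, at 20.7 down to 0.339 TPM, whereas the most abundant miRNA is at 519080 TPM.

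The spread of a member within a group holds counting error, differences between rats and the division of the libraries by substitutions, and their parts were not tested. For miR-146a-5p the coefficient of variation was 16.8% in NAFLD livers against 33.9% in normal livers, where Poisson counting at those depths gives 6.48% and 6.32%. For miR-142-5p it was 38.8% and 58.6%, against 10.1% and 11.0% from counting. For miR-155-5p it was 61.1% and 45.9%, against 46.3% and 54.8%.

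The 5′ ends differed among the members. Of the 113 reads of miR-142-3p, 102 started 1 base after the annotated start and 11 at it, a shifted share of 90.3% (95% Wilson interval from 83.4% to 94.5%). The annotated and the shifted form are shown here as tags, with bases 2 to 8 in capitals, because the shift changes the seed.
annotated start: tGTAGTGTttcctactttatgga
start 1 base later: gTAGTGTTtcctactttatgga
The shifted form was the more frequent in all 6 libraries, at 91.7%, 86.7% and 96.4% in NAFLD livers against 89.2%, 66.7% and 88.9% in normal livers, the lowest of which rested on 3 reads. The group means were 91.6% ± 4.88 and 81.6% ± 12.9 (SD, n = 3 each) and overlapped (exact permutation p = 0.3).

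MiR-223-3p and miR-142-5p also had reads with this shift, which the main counts left out. Of the reads at the annotated start or 1 base to either side, 36.9% (Wilson interval from 31.2% to 43.0%) of miR-223-3p and 30.0% (from 26.9% to 33.3%) of miR-142-5p started 1 base later. For miR-142-5p the shifted share was 29.4%, 26.4% and 28.2% in NAFLD livers against 30.1%, 36.7% and 32.8% in normal livers. All NAFLD values lay below all normal values, by 0.643 points between the nearest ones, in a measure looked at by group only after its values were seen. Over all miRNAs, the share was taken among reads at the annotated start or 1 base later, without those that start earlier. Of the 119 miRNAs with at least 20 such reads in every library, 7.56% did not overlap between the groups and 2.52% were lower in all NAFLD libraries. MiR-146a-5p did not overlap either, with 1.52% ± 0.321 in NAFLD livers against 0.190% ± 0.329 in normal livers (SD, n = 3 each), from 13 shifted reads in all. MiR-146b-5p and miR-155-5p had 0 shifted reads among 550 and 24, the first with a Wilson upper bound of 0.694% and the latter of 13.8%.

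**Figure D4:**
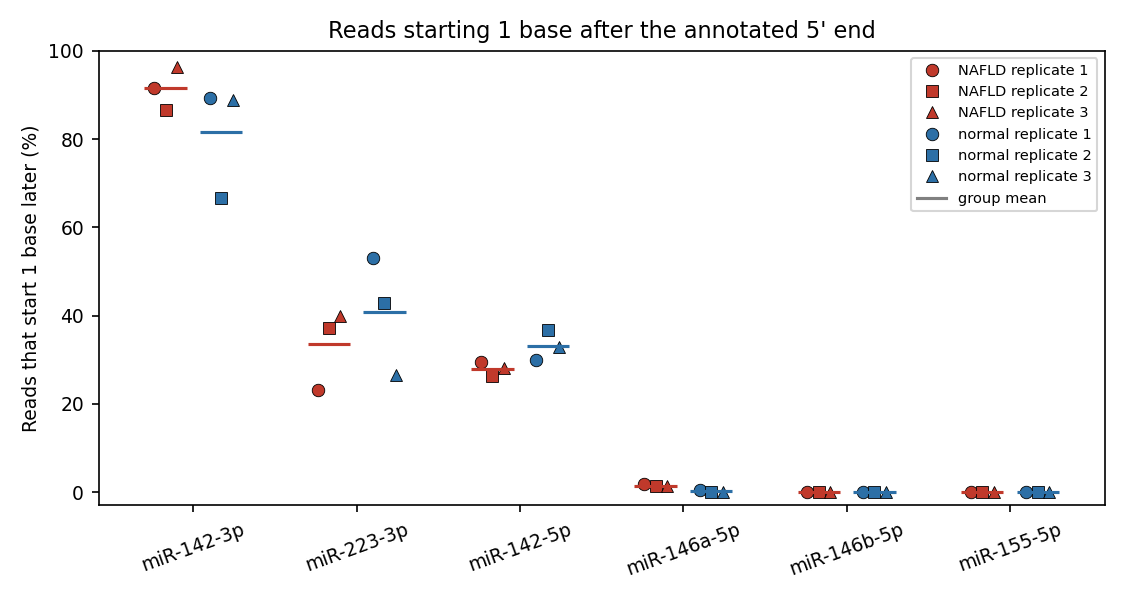
Percent of reads that start 1 base after the annotated 5′ end (y axis) among the reads at that start or 1 base to either side, with 1 point per library for each of the 6 members and a line at the group mean. MiR-142-3p lies between 66.7% and 96.4%, miR-223-3p and miR-142-5p between 23.3% and 53.1%, and the others below 2%.

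The 3′ ends of the members were compared with their RefSeq hairpins, to separate bases that continue the hairpin from bases that do not. The most abundant tags of 3 members are shown, with bases 2 to 8 in capitals, because 2 of them end past the reference and 1 ends with it.
miR-146a-5p: tGAGAACTgaattccatgggtta
miR-146b-5p: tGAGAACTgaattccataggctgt
miR-223-3p: tGTCAGTTtgtcaaataccccat
The first made up 25.9% of the miR-146a-5p reads and ended 1 base past the reference end, with a base that the hairpin also has. The next made up 53.6% of the miR-146b-5p reads and was the reference form itself. The last made up 31.01% of the miR-223-3p reads and carried a final T that the hairpin does not have.

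Reads that matched the hairpin to their last base were 57.4% for miR-146a-5p, 72.1% for miR-146b-5p, 77.2% for miR-142-5p, 83.2% for miR-142-3p and 44.9% for miR-223-3p, over all libraries. MiR-223-3p thus had the fewest, and 48.7% of its reads ended in up to 3 added T, compared with 21.2% for miR-146a-5p and 5.10% for miR-146b-5p. In miR-142-5p the most abundant tag was only 19 nt long and made up 23.6% of its reads, and 36.8% of the reads followed the hairpin but stopped short of the reference end. These end patterns were computed after the first values were seen and were not tested between the groups.

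For the 2 members with at least 50 reads in every library, the mean read length was tested between the groups. MiR-146a-5p measured 23.2 ± 0.0358 nt in NAFLD livers against 23.3 ± 0.0617 nt in normal livers (SD, n = 3 each, exact permutation p = 0.7). MiR-146b-5p measured 24.3 ± 0.149 nt and 24.1 ± 0.130 nt (SD, n = 3 each, exact permutation p = 0.2, adjusted over both 0.4). The difference of 0.255 nt exceeded either SD, but the groups overlapped. NAFLD replicate 3, at 24.159 nt, lay below normal replicate 2, at 24.198 nt. Over tags of 20 to 24 nt alone the difference was 0.0807 nt, and the NAFLD libraries, at 23.675 to 23.756 nt, lay above the normal ones, at 23.615 to 23.653 nt (exact permutation p = 0.1, the smallest possible). Of the 99 miRNAs with at least 50 reads in every library, 9.09% did not overlap between the groups in that measure. The share of the most abundant tag differed by less than its spread, with an exact permutation p of 1 for miR-146a-5p and 0.9 for miR-146b-5p.

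The arms of the hairpins were unequal, with shares that depended on the reads accepted. MiR-142-3p gave 17.2% of the reads from the miR-142 hairpin, and miR-223-5p gave 14.1% of those from the miR-223 hairpin. These shares accept shifted starts for miR-142-3p alone. With a shift of 1 base accepted for both arms, they were 12.6% and 9.35%, and with none accepted for either arm, 1.99% (11 of 554 reads) and 14.1%. By library the miR-223-5p share was 8.33%, 12.5% and 29.8% in NAFLD livers against 11.5%, 7.69% and 5.26% in normal livers, and the highest rested on 14 reads. The means of 16.9% ± 11.4 and 8.16% ± 3.16 (SD, n = 3 each) overlapped (exact permutation p = 0.2, adjusted over 3 hairpins 0.6). The difference of 8.71 points was 2.25 without NAFLD replicate 3, and 6.82 with shifted starts accepted for both arms (exact permutation p = 0.1, the smallest that 3 against 3 can give). MiR-146a-3p gave 1.21% of its hairpin's reads. MiR-146b-3p and miR-155-3p had 0 reads. With 3 reads taken as the most that a count of 0 allows, the limit was 0.546% of 549 reads for the former and 12.5% of 24 for the latter. This limit covers counting error only and is not a Wilson bound.

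Reads with a substitution in the first 18 bases were not counted as members, and their share divided the libraries in another way than the groups. For miR-146a-5p, reads 1 substitution away were 23.5% and 30.8% of all its reads in NAFLD replicates 2 and 3 and 24.6% in normal replicate 2, but 1.44%, 0.857% and 0.474% in NAFLD replicate 1 and normal replicates 1 and 3. MiR-146b-5p, miR-142-5p and miR-223-3p divided the same way, with 17.3% to 37.7% in the former libraries and 0% to 5.05% in the latter. MiR-155-5p, with its few reads, did not: it had 57.1% and 42.9% in NAFLD replicates 2 and 3 but 0% in normal replicate 2. In normal replicate 3 it had 33.3%, from 1 read with a substitution beside 2 exact reads. The changes were mostly from A to C: in the former libraries 90.3% of the miR-146a-5p reads with a substitution were A-to-C changes, 130 of them A16C and 100 A5C. In the same libraries miR-146b-5p had 38 reads with A16C and 34 with A5C, and miR-142-5p had the same 2 changes in 38 and 34 reads. The members were not particular in this, since the median over 99 miRNAs was 27.2% to 28.2% in those libraries and 0.973% to 1.26% in the others.

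**Figure D5:**
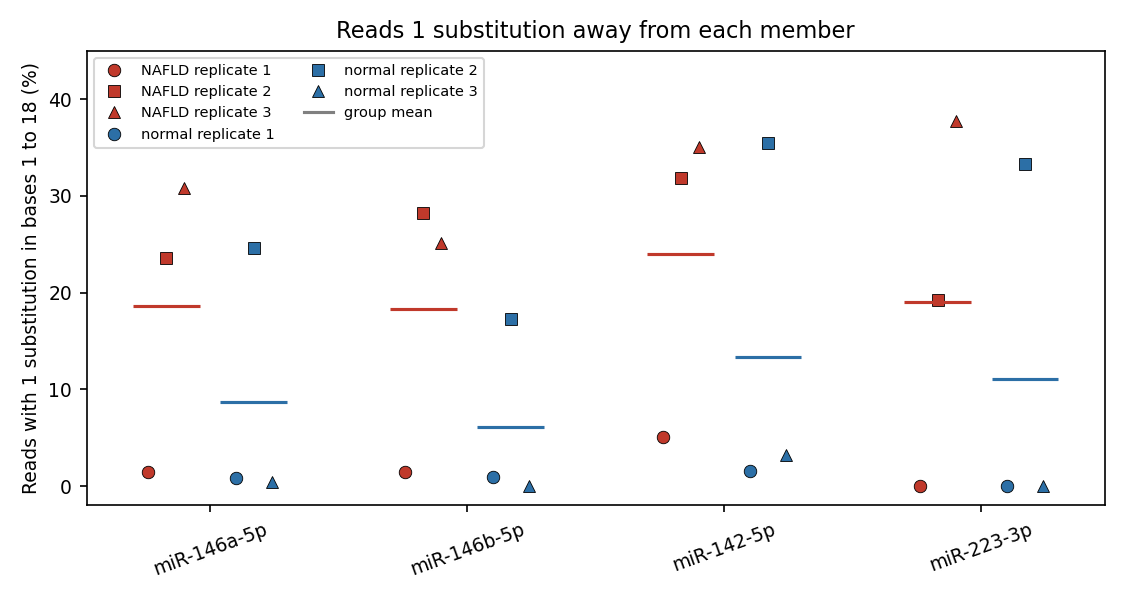
Percent of reads that carry 1 substitution in bases 1 to 18 (y axis) for 4 members, with 1 point per library and a line at the group mean. The squares of both groups and the NAFLD triangle, which are NAFLD replicates 2 and 3 and normal replicate 2, lie at 17.3% or above, and the other libraries at 5.05% or below.

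With these reads added back, miR-146a-5p had 17.9, 24.9 and 34.9 TPM in NAFLD livers against 29.5, 21.6 and 17.8 TPM in normal livers, still with overlap. MiR-142-5p had 8.53, 7.74 and 18.1 TPM against 10.9, 4.04 and 7.83 TPM. MiR-155-5p then had 3, 7 and 14 reads in NAFLD livers against 5, 3 and 3 in normal livers, also with overlap. The log2 fold changes were then 0.17 for miR-146a-5p, -0.14 for miR-146b-5p, 0.60 for miR-142-5p and 0.55 for miR-223-3p, while the median of all miRNAs tested was 0.15. For miR-142-3p, a substitution was accepted only in reads at the annotated start, the form of 11 of its 113 reads. Shifted reads with a substitution were not added back, and its log2 fold change stayed at -0.06. Within NAFLD replicate 1 and normal replicates 1 and 3, the log2 ratio of exact reads was -0.41 for miR-146a-5p, -0.17 for miR-142-5p, 0.19 for miR-223-3p, -0.70 for miR-146b-5p and -1.16 for miR-142-3p. Within the other 3 libraries it was 0.41, 1.71, 1.18, -0.02 and 2.85 in the same order, and there the normal side is normal replicate 2 alone. Each of these sets has 1 library on one side, so neither was tested alone. With the set as a covariate, 0 of the 5 members had an edgeR adjusted p under 0.05, and the smallest was 0.6283, for miR-142-5p and miR-223-3p. In that fit only 1 of all 168 miRNAs tested was called, and 23 had an unadjusted edgeR p under 0.05. The median log2 fold change over all of them was 0.24.

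Other miRNAs known from leukocytes or inflammation were read from a list of 18, of which 17 had a reference sequence, 15 were detected and 8 were tested. None of the 8 rose or fell by the adjusted edgeR test, none had an unadjusted p under 0.05, and their median log2 fold change was 0.10. MiR-21-5p, which many injured tissues and activated macrophages express, had 1946 ± 232 TPM in NAFLD livers against 2189 ± 1011 TPM in normal livers (SD, n = 3 each). MiR-24-3p had 459 ± 120 and 424 ± 58.5 TPM (SD, n = 3 each). MiR-132-3p, inducible in monocytes, had 460 ± 533 and 207 ± 168 TPM (SD, n = 3 each), so that its SD exceeded its mean in the NAFLD libraries. MiR-511-3p, encoded in the macrophage mannose receptor gene Mrc1 in mouse and human, and miR-342-3p of lymphoid and myeloid cells lay at the level of miR-146a-5p and were picked out after their values were seen. MiR-511-3p had 20.03 ± 8.82 and 26.1 ± 13.1 TPM and miR-342-3p 14.1 ± 2.51 and 13.3 ± 2.67 TPM (SD, n = 3 each).

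Markers of other cells were read beside the members, because blood left in the liver carries leukocytes with it. In bulk tissue, fewer cells of a type and less of a miRNA per cell cannot be told apart. The 3 erythroid miRNAs that could be counted, of 4 on the list, summed to 27.04 to 76.3 TPM in NAFLD livers and to 30.8 to 50.4 TPM in normal livers, and 0 of them passed the test. MiR-451-5p, the main erythroid miRNA, had 35.1 ± 15.8 and 27.1 ± 7.36 TPM (SD, n = 3 each). The 2 endothelial markers summed to 23.5 to 48.4 and 14.7 to 41.1 TPM, and the 5 stellate or mesenchymal markers to 532 to 665 and 342 to 593 TPM, in NAFLD and normal libraries. The most abundant of these were miR-126a-5p, with 30.5 ± 12.4 and 29.0 ± 14.5 TPM, and miR-199a-3p, with 423 ± 20.4 and 296 ± 87.0 TPM (SD, n = 3 each), and 0 of the 7 passed the test. Of the epithelial, neural and muscle lists, which had 2, 1 and 3 members in the reference, the sums stayed at or below 11.4 TPM in every library. Their most abundant members were miR-200c-3p, with 1.39 ± 0.565 and 2.42 ± 0.573 TPM, miR-9a-5p, with 0.0567 ± 0.0982 and 0.0842 ± 0.0842 TPM, and miR-1-3p, with 4.09 ± 4.90 and 2.44 ± 0.804 TPM (SD, n = 3 each). The part of blood in the values of the members was not tested.

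The miRNAs whose log2(TPM + 1) followed each member most closely over the 6 libraries were miR-222-3p and miR-362-3p for miR-223-3p (Pearson's r = 0.98 and 0.97) and miR-106b-5p and miR-3473 for miR-142-5p (0.99 and 0.95). For miR-142-3p they were miR-466c-5p and miR-21-5p (0.97 and 0.93), for miR-146a-5p miR-664-3p and miR-361-5p (0.94 and 0.90), and for miR-146b-5p miR-200c-3p and miR-186-5p (0.91 and 0.88). These were the 2 highest of 167 values for each member, over only 6 libraries that share their depth and their division by substitution rate, so they describe the libraries. No member had another member among its 2 nearest. Between the members, r was lowest for miR-223-3p with miR-146a-5p, at 0.17, and highest for the arms of miR-142, at 0.91, followed by miR-142-3p with miR-146a-5p, at 0.90.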

How the data were processed

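The authors cut out RNA of 18 to 30 nt, sequenced it, removed low-quality, adaptor, poly A and short reads, and deposited the count of reads per tag. These counts are not normalized or filtered for a genome match. Per the labels the build was Rnor_5.0 (rn5), which no value here uses. Tags were summed per miRNA by RefSeq mature sequences (GRCr8), 724 entries in 675 groups. The 7 members, the lists and the tests were chosen with earlier results of these data known. TPM used total clean reads, as in the study.

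The test was the quasi-likelihood one of edgeR 4.0.16 under R 4.3.3 (glmQLFit, glmQLFTest, filterByExpr, library size equal to clean reads, Benjamini-Hochberg, threshold 0.05). The fit was also run on simulated counts, which lacked the division of the libraries by substitutions. The changes put in were larger than any estimated for a member, so that run cannot show how well smaller ones are found. The standard error is the absolute log2 fold change over the square root of F. DESeq2 1.42.0, limma 3.58.1 on log2(TPM + 1) and 18 further settings were alternatives, 2 of all 20 being added after the data were seen, as were 2 for the arm shares. Python 3.11.15, pandas 2.3.3 and scipy 1.17.1 did the rest. Replicates were separate rats by the study's methods. The sources used here name no molecular identifiers, so copies made in amplification could not be told apart. The Poisson and Wilson intervals cover counting error alone, whereas the intervals of the log2 fold changes also hold the spread between libraries. Named miRNAs were all members, the 3 most abundant of the leukocyte list, the most abundant marker of each list, the most abundant miRNA of all and the 2 nearest miRNAs of each member. MiR-511-3p, miR-342-3p, miR-1b and miR-184 fall outside this rule and were named after their values were seen, and the other arms were named with their hairpins.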

Additional observations from a re-analysis of the deposited data

How the results depend on the processing

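None of the tested members passed the adjusted threshold under any of the 20 alternatives, and the smallest adjusted p was 0.4479, for miR-142-5p by edgeR with 1 substitution accepted and the library set as a covariate. MiR-146b-5p stayed lower in NAFLD under all of them. The sign of the other members was not stable. MiR-142-3p, at -0.06, had a log2 fold change of 0.0271 with TMM factors, 0.12 with miRNA reads as library size, 0.12 by DESeq2, 0.0883 by limma, 0.16 with the replicate block, 0.39 with the library set as a covariate and 0.33 with that covariate and 1 substitution accepted. For this member, accepting 1 substitution did not add back its shifted reads. MiR-146a-5p, at -0.05, had 0.13 with miRNA reads as library size, 0.17 with 1 substitution accepted, 0.0387 with the covariate added and 0.0236 with TMM factors added. The median of all miRNAs tested, 0.02 in the main fit, was 0.20 with miRNA reads as library size. It was 0.24 with the library set as a covariate and 0.26 with that covariate and 1 substitution accepted. With TMM factors it was -0.03, by DESeq2 -0.01, by limma 0.01 and with the replicate block 0.02. The cause of the reversals was not tested.

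With 1 library left out, the log2 fold change ran from -0.57 to 0.81 for miR-142-3p, from -0.0064 to 0.74 for miR-223-3p, from -0.13 to 0.72 for miR-142-5p and from -0.21 to 0.26 for miR-146a-5p. The difference in read length of miR-146a-5p ran from -0.0548 to 0.00617 nt, that in the share of the top tag from -2.58 to 1.65 points for miR-146a-5p and from -4.33 to 0.323 for miR-146b-5p, and that in the minor arm from -3.76 to 3.11 points for miR-142, from -0.226 to 1.17 for miR-146a and from 2.25 to 12.98 for miR-223. With shifted starts accepted for both arms, added after the data were seen, the miR-142 difference was 0.314 points in place of -0.161. All miRNAs called numbered 1 in the fit by clean reads, 0 with TMM factors, with miRNA reads as library size or with TMM factors and 1 substitution, and 3 with 1 substitution and the covariate. Where the count was 0, miR-122-5p lost its call, and 6 to 18 miRNAs had an unadjusted edgeR p under 0.05. Leaving out 1 library gave 1 to 2, where miR-184 joined miR-122-5p without NAFLD replicate 1. The replicate numbers were not taken to pair the libraries. The correlation of same-numbered deviations ran from -0.54 to 0.33 and that of differently numbered ones from -0.50 to 0.45, too few values to decide this. With the replicate block, 0 members and 1 miRNA were called. MiR-142-3p could not be fitted without its shifted reads or with at least 10 reads required in every library. Depth limits miR-155-5p most, with 2 to 8 reads per library, then miR-142-3p, with 3 to 37.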

Other observations

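MiR-132-3p of the leukocyte list spanned 46.0 to 1061 TPM over the libraries, with 12313, 3197 and 543 reads in NAFLD replicates 1 to 3 and 1734, 909 and 4716 in normal replicates 1 to 3. A single tag carried 96.6% to 98.2% of its reads in every library, whereas the most abundant tag of miR-146a-5p carried 21.0% to 29.4%. With 1 substitution accepted and the library set as a covariate, an alternative added after the data were seen, it was higher in NAFLD with a log2 fold change of 1.49 (standard error 0.38, edgeR adjusted p = 0.0315), against 1.15 (standard error 0.87, edgeR adjusted p = 0.9862) in the fit by clean reads. Without NAFLD replicate 1 the latter was -0.38 (edgeR adjusted p = 0.9944), so that library set its direction. In the alternative with the covariate and 1 substitution accepted, 3 of 174 miRNAs tested were called. Of these, 2 were higher in NAFLD, and none was a member. The median log2 fold change over all miRNAs tested was 0.26 there, and 27 had an unadjusted edgeR p under 0.05.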
